A study of Mus musculus with 6 samples.

Results

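The genes followed here through mouse hepatocytes are 10 widely used readouts of the coactivator YAP and its DNA-binding partners of the TEAD family: Ccn1, Ccn2, Ankrd1, Amotl2, Axl, Nt5e, Tgfb2, Crim1, Ajuba and Vgll4. They were chosen by name, as known targets, with earlier results of these data at hand. All 10 are among the 48432 genes of the expression table, and 9 of them are among the 14307 genes that reached 1 TPM in at least 2 of the 6 samples and were tested. Ankrd1 did not reach that level. TPM is a transcript's share per length, scaled so that each sample sums to 1000000.

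The samples were hepatocytes isolated from mice of the FVB strain in 3 groups of 2. The DDC fed adults had received, for 4 weeks, a diet with DDC, a compound that blocks heme synthesis and injures liver cells and bile ducts. Each E18 sample came from livers of about 8 embryos of embryonic day 18 (E18) that were put together before the cells were prepared. Normal fed adults were on chow (CHOW) without the compound. The labels name no sex or adult age, and no transgene or deletion, and nothing in them ties an adult sample to an animal. The p-values below therefore measure the spread between these samples, which may be technical. Samples are numbered 0 and 1 within a group, and depth is unknown because the table holds no counts.

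YAP and its relative TAZ (encoded by Wwtr1) are coactivators without a DNA-binding domain of their own. The Hippo kinases MST1 and MST2 activate LATS1 and LATS2, which phosphorylate YAP and TAZ and hold them in the cytoplasm, and when the kinases are quiet the coactivators enter the nucleus and work through TEAD1 to TEAD4. In liver the pathway is known for setting organ size, and YAP activity is known to rise in injury and in ductular reactions. The targets include secreted matrix proteins, receptors and enzymes of the cell surface, and proteins that feed back on the pathway itself. Several, such as Ccn1 and Ccn2, also respond to serum, stretch and growth factors.

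The base sequences before the start sites are shown because the TEAD factors recognise the core GGAATG, and because the members could then be seen with and without it. RefSeq promoters on GRCm38.p6, from 250 bases before the start to 50 after it, were at hand for 9 of the 10 genes, all but Ccn2. GGAATG, searched on both strands, was in 7 of the 9 and in 14.7% of all 32851 promoters of the table. The motif TGANTCA of AP-1 factors, which does not overlap that core, was in 0 of the 9 and in 7.81% of all promoters. Ankrd1 and Ajuba had 2 copies of GGAATG each, as did 1.36% of all promoters at 2 or more. The 250 bases before the start follow for Ccn1 (chr3:145649986-145650235, minus strand), Ankrd1 (chr19:36119845-36120094, minus strand), Ajuba (chr14:54577662-54577911, minus strand) and Nt5e (chr9:88327359-88327608, plus strand), 5′ to 3′ on the gene's strand. Capitals mark GGAATG or its reverse complement CATTCC, and Nt5e is shown as a promoter without either.
Ccn1: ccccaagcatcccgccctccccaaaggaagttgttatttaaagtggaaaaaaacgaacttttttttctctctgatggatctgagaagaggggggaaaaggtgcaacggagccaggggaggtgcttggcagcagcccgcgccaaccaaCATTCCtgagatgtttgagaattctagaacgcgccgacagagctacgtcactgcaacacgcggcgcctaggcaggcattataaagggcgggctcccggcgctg
Ankrd1: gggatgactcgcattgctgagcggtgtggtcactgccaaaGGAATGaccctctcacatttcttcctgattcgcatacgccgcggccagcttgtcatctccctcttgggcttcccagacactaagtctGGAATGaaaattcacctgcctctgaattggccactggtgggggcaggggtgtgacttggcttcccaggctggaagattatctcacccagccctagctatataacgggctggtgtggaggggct
Ajuba: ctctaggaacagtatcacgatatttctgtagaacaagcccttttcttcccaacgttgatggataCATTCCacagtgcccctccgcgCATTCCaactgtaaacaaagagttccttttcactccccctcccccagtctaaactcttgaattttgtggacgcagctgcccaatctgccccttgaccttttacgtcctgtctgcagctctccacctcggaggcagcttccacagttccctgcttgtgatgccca
Nt5e: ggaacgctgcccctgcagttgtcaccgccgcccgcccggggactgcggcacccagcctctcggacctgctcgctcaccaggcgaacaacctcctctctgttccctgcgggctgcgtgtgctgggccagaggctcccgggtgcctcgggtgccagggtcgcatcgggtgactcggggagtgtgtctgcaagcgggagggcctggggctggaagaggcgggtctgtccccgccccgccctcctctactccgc
The promoters of Amotl2, Axl, Crim1 and Vgll4 had 1 copy each, given here with 8 bases on either side. The capitals stand at chr9:102717739-102717744 for Amotl2, chr7:25788961-25788966 for Axl, chr17:78200169-78200174 for Crim1 and chr6:114969280-114969285 for Vgll4.
Amotl2: aactctcaCATTCCtggcatag
Axl: attctacaGGAATGtttaccag
Crim1: cgggggggGGAATGaggtagga
Vgll4: tggggtggGGAATGctgagaaa
The first base of the motif lay 103 bases before the start in Ccn1, 210 and 123 in Ankrd1, 65 in Amotl2, 233 in Axl, 79 in Crim1, 186 and 164 in Ajuba, and 82 in Vgll4. It was on the opposite strand in Ccn1, Amotl2 and Ajuba and on the gene's strand in Ankrd1, Axl, Crim1 and Vgll4. No copy was found in the windows of Nt5e and Tgfb2. Among the other genes with an entry, GGAATG was in 3 of 10 further YAP/TEAD targets, in 5 of 7 genes for YAP, TAZ, the TEAD factors and the VGLL family, and in 3 of 11 Hippo kinases and upstream regulators. Distances are from RefSeq starts, and a match is a string of letters and not a measured binding site.

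**Figure D1:**
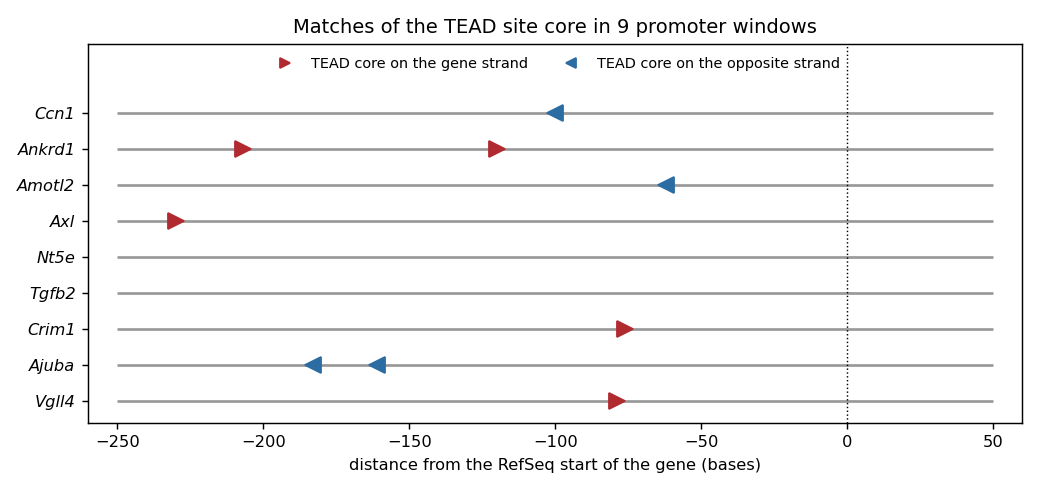
Position of GGAATG, on either strand, in the RefSeq promoters of 9 member genes; the horizontal axis is the distance from the start site in bases, and each triangle is 1 copy, red and pointing right on the gene's strand, blue and pointing left on the opposite one. Of the 9 promoters, 7 hold at least 1 copy and those of Nt5e and Tgfb2 hold none.

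The hepatocyte label was checked against markers before the members were read. Ttr, a plasma protein of hepatocytes, had 7055 and 6701 TPM in DDC fed samples, 3941 and 2487 in E18 samples and 9535 and 9640 in normal fed samples, and 12 hepatocyte markers summed to 17160 and 15750 TPM in DDC fed samples, 6190 and 3896 in E18 samples and 27730 and 19920 in normal fed samples. Of the 10 tested, 1 was higher and 1 lower in DDC fed than in normal fed samples, and 1 was higher and 8 were lower in E18 than in normal fed samples. The genes for albumin (Alb) and transferrin (Tf) are listed at 0 in all 6 samples and Fgb, a fibrinogen chain, at 0 in both E18 samples, so that a 0 in this table need not be a low level. Of the 12 markers, 3 are listed at 0 in both normal fed samples, 3 in both E18 samples and 2 in both DDC fed samples. The sums thus cover different genes between groups. The marker called higher, with log2 fold changes of 9.19 with DDC and 8.17 in E18, was at 0 in both normal fed samples. Fgb is among the 8 lower in E18. Other liver cells were present in the RNA as well. The summed level of 15 macrophage markers was 1209 and 1495 TPM in DDC fed samples, 4111 and 5254 in E18 samples, and 149 and 127 in normal fed samples. Normal fed sample 0 was above sample 1 in 69.1% of all tested genes and in 9 of the 10 members, with Ankrd1 at 0 in both. Sample 0 and sample 1 differed by a median of 0.12 on the log2 scale in DDC fed, 0.17 in E18 and 0.37 in normal fed adults, in absolute terms. In bulk RNA, fewer cells of a type and less RNA per cell cannot be told apart.

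With 4 weeks of the DDC diet, 7 of the 10 target genes rose relative to normal fed adults: Ccn1, Ccn2, Tgfb2, Axl, Nt5e, Crim1 and Ajuba. Amotl2 and Vgll4 did not pass the test, and Ankrd1 was not tested. Tgfb2 and Nt5e count among the 7 although they passed the filter on low values only through DDC fed and E18 samples. Ccn2, Crim1 and Ajuba reached 1 TPM in normal fed sample 0 but not in sample 1, so they also needed the other groups to pass. The log2 fold changes of the 7 ran between 2.12 and 3.60. Over all genes tested, 37.3% passed in either direction, 34.2% higher and 3.07% lower, at an adjusted p under 0.05 in limma with Benjamini-Hochberg adjustment. The DDC fed samples lay wholly above the normal fed ones for 7 of the 9 members tested and wholly below for 0; among all genes tested this was so for 62.4% and 8.99%. The median log2 fold change of all genes was 0.45. Fold changes are on the scale of log2(TPM + 1), which understates the change of genes with low TPM, and are given ± SE.

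The matricellular proteins CCN1 and CCN2 bind integrins and are the most used readouts of YAP. Ccn1 had 121 and 279 TPM in DDC fed samples, 79.7 and 62.7 in E18 samples, and 21.0 and 9.48 in normal fed samples. The DDC fed samples were the highest and differed most from each other, and the 3 groups did not overlap. Its log2 fold change in DDC fed over normal fed samples was 3.60 ± 0.48 (95% confidence interval 2.45 to 4.76, adjusted p = 0.00165, limma). Ccn2 had 14.5 and 19.8 TPM in DDC fed samples, 10.5 and 9.63 in E18 samples, and 1.24 and 0.733 in normal fed samples. Its groups stood in the same order, again without overlap. The log2 fold change was 3.18 ± 0.24 (adjusted p = 0.000197, limma).

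Tgfb2 encodes a secreted TGF-beta ligand. It had 2.97 and 3.82 TPM in DDC fed samples, 1.19 and 1.35 in E18 samples, and 0.00982 and 0.00814 in normal fed samples, where it was near 0. The difference from normal fed was 2.12 ± 0.14. Tgfb2 and Nt5e were under 1 TPM in both normal fed samples. They passed the filter on low values only through the other groups, so a difference from normal fed was built into their passing. No p against normal fed is given for these genes.

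Axl, Nt5e and Crim1 act at the cell surface. Axl, a receptor tyrosine kinase that takes part in the clearing of dead cells, had 20.2 and 22.3 TPM in DDC fed samples, 48.0 and 60.5 in E18 samples, and 2.37 and 1.10 in normal fed samples. Here E18 was the highest group and no groups overlapped. In DDC fed over normal fed samples Axl was higher by 3.06 ± 0.28 (adjusted p = 0.000378, limma). Nt5e, which encodes CD73, the enzyme that makes adenosine from AMP outside the cell, had 14.0 and 12.7 TPM in DDC fed samples, 19.2 and 13.8 in E18 samples, and 0.314 and 0.302 in normal fed samples. DDC fed and E18 samples overlapped and both stood far above normal fed, with 3.45 ± 0.22 between DDC fed and normal fed. Crim1, a transmembrane protein that binds bone morphogenetic proteins, had 10.5 and 8.19 TPM in DDC fed samples, 6.95 and 6.84 in E18 samples, and 2.17 and 0.629 in normal fed samples. Its groups did not overlap, and the change with DDC was 2.18 ± 0.33 (adjusted p = 0.00268, limma).

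Inside the cell, the members divide into 1 gene that rose and 2 that did not pass. Ajuba is a LIM-domain scaffold that binds LATS kinases and restrains them. It had 10.5 and 12.9 TPM in DDC fed samples, 3.63 and 3.12 in E18 samples, and 1.37 and 0.777 in normal fed samples, so that DDC fed samples lay well above both other groups. The change from normal fed was 2.63 ± 0.22 (adjusted p = 0.000278, limma). Amotl2 is an angiomotin that holds YAP at junctions and is itself a target. It had 14.0 and 12.4 TPM in DDC fed samples, 17.9 and 17.0 in E18 samples, and 20.3 and 9.07 in normal fed samples. The 2 normal fed samples enclosed all the others. Its difference between DDC fed and normal fed samples was -0.05 ± 0.35, with an interval of -0.89 to 0.79 (adjusted p = 0.937, limma). Vgll4 competes with YAP for TEAD factors in the nucleus. It had 23.1 and 24.0 TPM in DDC fed samples, 27.4 and 28.4 in E18 samples, and 29.9 and 14.1 in normal fed samples, which again enclosed the rest. Its difference was 0.18 ± 0.33, with an interval of -0.61 to 0.98 (adjusted p = 0.702, limma).

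For Amotl2 and Vgll4 the normal fed pair decided the value. Without normal fed sample 0, the difference in DDC fed samples was 0.49 for Amotl2 (adjusted p over its 15 alternatives 0.0281 to 1) and 0.70 for Vgll4 (0.00625 to 0.886), and both passed as higher. Without normal fed sample 1, the difference was -0.59 for Amotl2, which passed as lower, and -0.33 for Vgll4. With samples scaled by their median ratio, which brings the all-gene median to -0.01, Vgll4 stood at -0.47. The other 7 members passed as higher under each alternative in which they were tested.

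Ankrd1, a nuclear ankyrin-repeat protein and a common YAP readout in other cell types, stayed near or under 1 TPM. It had 0.215 and 0.612 TPM in DDC fed samples, 1.01 and 0.610 in E18 samples, and is listed at 0 in both normal fed samples. No fold change against normal fed is given for that reason. DDC fed and E18 samples overlapped.

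**Figure D2:**
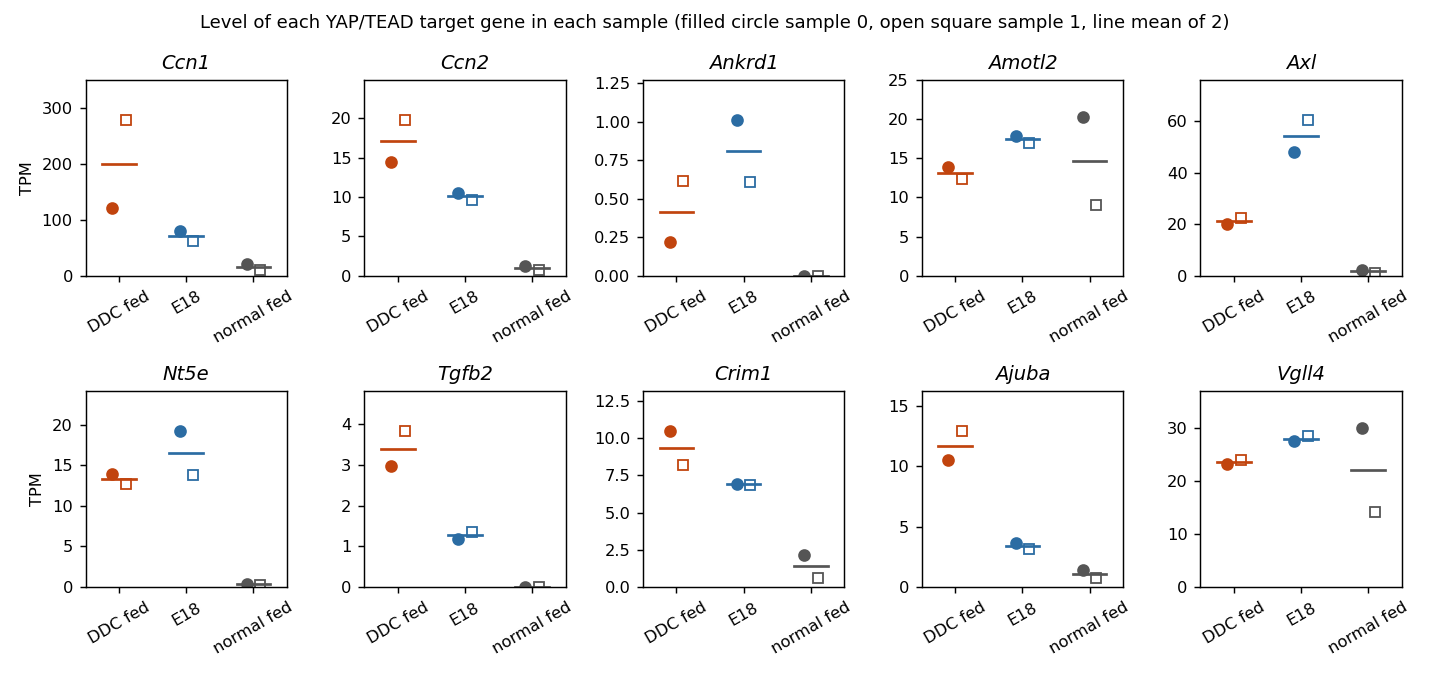
TPM of each of the 10 member genes (vertical axes from 0, a scale for each gene) in the 2 DDC fed, 2 E18 and 2 normal fed samples; the filled circle is sample 0, the open square sample 1 and the line their mean. Normal fed samples lie below the other groups for all but Amotl2 and Vgll4, where they enclose them.

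In E18 hepatocytes the same comparison with normal fed adults was made, with the same normal fed samples, so the 2 sets of values are not independent. Ccn1, Ccn2, Tgfb2, Axl, Nt5e, Crim1 and Ajuba were higher, and Amotl2 and Vgll4 did not pass. Of all genes, 75.7% passed in either direction, 63.0% higher and 12.7% lower, with a median of 1.06 on the log2 scale, so that 7 members higher is near what the table holds as a whole. E18 samples lay wholly above normal fed ones for 7 of the 9 members tested and wholly below for 0, beside 69.7% and 16.7% of the genes tested. The members' own median was 1.80.

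The log2 fold changes of the secreted members in E18 over normal fed samples were 2.24 ± 0.48 for Ccn1 (adjusted p = 0.00471, limma), 2.49 ± 0.24 for Ccn2 (adjusted p = 9.13e-05) and 1.17 ± 0.14 for Tgfb2. At the cell surface they were 4.37 ± 0.28 for Axl (adjusted p = 1.25e-05, limma), 3.72 ± 0.22 for Nt5e and 1.80 ± 0.33 for Crim1 (adjusted p = 0.00211). Axl and Nt5e were thus the members with the largest change. Nt5e and Tgfb2 passed the filter on low values only through DDC fed and E18 samples. A difference from normal fed was thus built into their passing, and no p is given for it. Ccn2, Crim1 and Ajuba also needed samples of those groups to pass. Ajuba stood at 1.09 ± 0.22 (adjusted p = 0.00333, limma), close to the median of all genes. Amotl2 differed by 0.33 ± 0.35 (interval -0.50 to 1.17, adjusted p = 0.414, limma) and Vgll4 by 0.42 ± 0.33 (interval -0.38 to 1.22, adjusted p = 0.287).

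These E18 values moved with the scaling. With median-ratio scaling the all-gene median was 0.09, and Ccn1 stood at 1.09 (adjusted p = 0.058, limma; 0.0019 to 0.0799 over its alternatives) and Ajuba at 0.33 (adjusted p = 0.131; 0.00149 to 0.131), neither of which passed. Amotl2 then passed as lower at -0.79 and Vgll4 at -0.73. Ccn2, Tgfb2, Axl, Nt5e and Crim1 stayed higher. Ccn1 also did not pass without E18 sample 0 (adjusted p = 0.0799) or without E18 sample 1 (adjusted p = 0.0576). Without normal fed sample 0, Amotl2 and Vgll4 passed as higher, at 0.87 and 0.94, and without normal fed sample 1 they stood at -0.21 and -0.10.

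**Figure D3:**
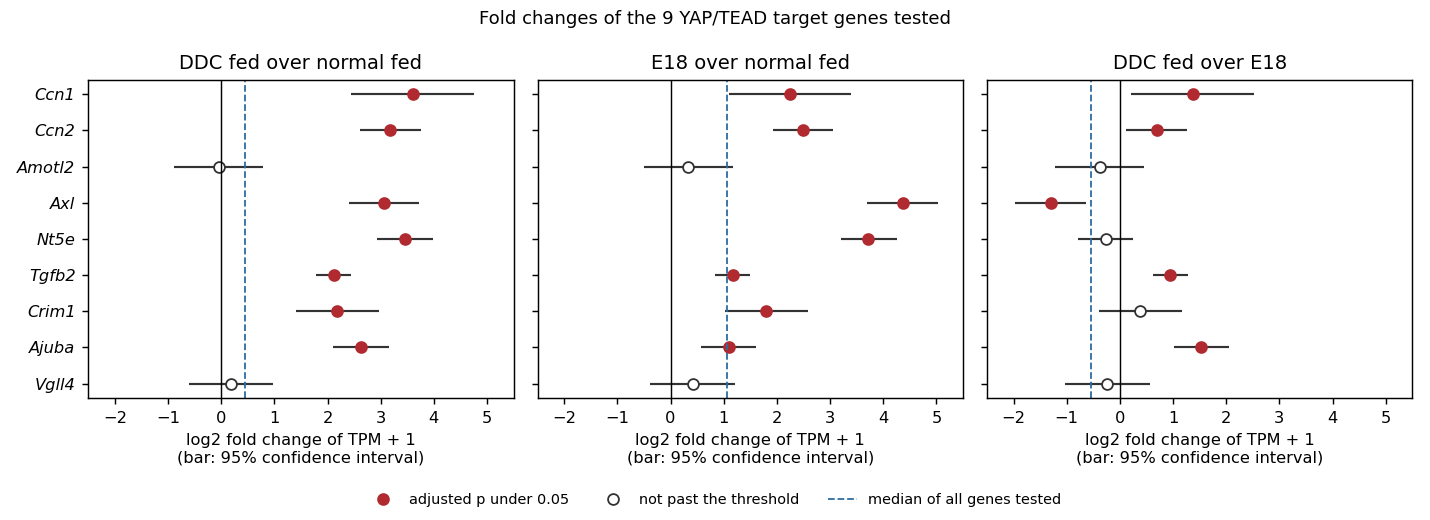
Log2 fold changes on the log2(TPM + 1) scale with 95% confidence intervals (limma) of the 9 tested member genes for DDC fed over normal fed, E18 over normal fed and DDC fed over E18; filled red points passed, open points did not, and the dashed line is the median of all 14307 genes tested. In DDC fed over normal fed samples, 7 members lie between 2.12 and 3.60 and Amotl2 and Vgll4 lie near 0.

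Set directly against E18, the DDC fed samples had higher Ccn1, Ccn2, Tgfb2 and Ajuba and lower Axl. Amotl2, Nt5e, Crim1 and Vgll4 did not pass. Among all genes the split ran the other way: 64.7% passed, 17.7% higher and 47.0% lower, with a median of -0.55. DDC fed samples lay wholly above E18 for 5 of the 9 members tested and wholly below for 3, beside 28.2% and 61.8% of the genes tested. Ajuba was higher by 1.53 ± 0.22 (adjusted p = 0.00091, limma) and Tgfb2 by 0.95 ± 0.14 (adjusted p = 0.00106). Ccn1 was higher by 1.37 ± 0.48 (interval 0.21 to 2.52, adjusted p = 0.0423, limma) and Ccn2 by 0.70 ± 0.24 (interval 0.12 to 1.27, adjusted p = 0.0386), both close to the threshold. Axl was lower, at -1.30 ± 0.28 (adjusted p = 0.00573, limma). For the 4 others the intervals were -1.22 to 0.46 for Amotl2, -0.79 to 0.25 for Nt5e, -0.40 to 1.16 for Crim1 and -1.03 to 0.56 for Vgll4.

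The calls on Ccn1 and Ccn2 did not hold when some single samples were left out, which also leaves fewer residual degrees of freedom. Without DDC fed sample 1, Ccn1 was higher by 0.77 (adjusted p = 0.241, limma; 0.00955 to 0.264 over its alternatives) and Ccn2 by 0.48 (adjusted p = 0.242; 0.00289 to 0.242). Neither passed without E18 sample 0, without E18 sample 1, without the filter on low values or with the exon-length correction, and leaving out DDC fed sample 0 also ended the call on Ccn2 (adjusted p = 0.0565, limma). Axl did not pass without E18 sample 1, at -1.14 (adjusted p = 0.0858; 0.000712 to 0.0858). Tgfb2 and Ajuba were higher under each alternative in which they were tested at the threshold of 0.05. Amotl2 passed as lower, at -0.38, without normal fed sample 0 (adjusted p = 0.0303, limma; 0.0288 to 0.757 over its alternatives), without normal fed sample 1 and with only the compared groups in the fit. With median-ratio scaling, which moves the all-gene median to -0.10, Amotl2, Nt5e and Vgll4 changed sign, to 0.10, 0.20 and 0.25.

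Ccn1 differed more between the 2 DDC fed samples than nearly any other gene. Sample 1 was 2.31-fold above sample 0, and only 43 of the tested genes, or 0.3%, were as much higher in sample 1. Gadd45a, a further YAP/TEAD target named after its values were seen, had 22.5 and 48.7 TPM in DDC fed samples 0 and 1. Of the 18 further targets tested, 12 were higher in sample 1, with a median log2 difference of 0.04. The other members differed less, by at most 1.37-fold among those tested (Ccn2). A list of 24 immediate early genes, which respond within minutes to handling or growth factors, was added after these values were seen. All 24 were higher in DDC fed sample 1 than in sample 0, with a median log2 difference of 0.65. Over all tested genes, DDC fed sample 0 was the higher one in 43.6%. In sample 1 against sample 0, 3 of the 24 were higher in E18 and 3 of the 24 in normal fed samples. Fos had 269 and 514 TPM and Atf3 had 81.5 and 194 TPM in DDC fed samples 0 and 1. The list summed to 2633 and 4167 TPM in DDC fed samples, 5871 and 4461 in E18 samples, and 1125 and 596 in normal fed samples, and its part in the Ccn1 result was not tested.

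TPM counts transcripts per length, so that levels can be set side by side between genes. In DDC fed samples the order of mean TPM was Ccn1 (200 ± 112), Vgll4 (23.5 ± 0.602), Axl (21.2 ± 1.51), Ccn2 (17.1 ± 3.76), Nt5e, Amotl2, Ajuba, Crim1, Tgfb2 and Ankrd1 (SD, n = 2). Nt5e, Amotl2 and Ajuba overlapped their neighbours in that order. In E18 samples the order was Ccn1 (71.2 ± 12.1), Axl (54.2 ± 8.82), Vgll4 (27.9 ± 0.728), Amotl2, Nt5e, Ccn2, Crim1, Ajuba, Tgfb2 and Ankrd1, with overlap between Amotl2 and Nt5e alone. Normal fed samples had Vgll4 (22.0 ± 11.2), Ccn1 (15.3 ± 8.16) and Amotl2 (14.7 ± 7.96) at the top, overlapping each other, and the other members at 2.37 TPM or less. Ccn1 was above 95.8% of the genes with any signal in DDC fed samples, 90.6% in E18 samples and 73.4% in normal fed samples.

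The genes whose pattern over the 6 samples was most like that of Ccn1, by Pearson's r of log2(TPM + 1) among 10349 genes of at least 5 TPM on average, were Nsfl1c (r = 0.996), Eepd1 (r = 0.988) and Ulk3 (r = 0.985). Those nearest to Ccn2 were Rtkn (r = 0.998), Cav2 (r = 0.997) and Plk2 (r = 0.997). Cav2, a caveolin, had 11.7 and 13.0 TPM in DDC fed samples, 7.69 and 6.92 in E18 samples, and 1.49 and 1.08 in normal fed samples. Nsfl1c spanned a much narrower range, with 83.9 and 90.9 TPM in DDC fed samples, 76.0 and 74.5 in E18 samples, and 63.0 and 57.0 in normal fed samples. With 6 points in 3 groups such values are high for many genes, and they are given as a description.

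The coactivators and their DNA-binding partners were read next. Yap1 had 37.8 and 37.5 TPM in DDC fed samples, 22.5 and 15.0 in E18 samples, and 36.2 and 22.9 in normal fed samples. Its level in DDC fed samples did not pass against normal fed (0.37 ± 0.29, adjusted p = 0.345, limma), and in E18 against normal fed it stood at -0.62 ± 0.29 (adjusted p = 0.09). E18 Yap1 passed as lower with median-ratio scaling (-1.76), with exon-length correction (-0.98), with the replicate number as a block (-0.62) and without normal fed sample 1 (-0.94). Wwtr1, which encodes TAZ, had 15.4 and 13.8 TPM in DDC fed samples, 8.75 and 7.15 in E18 samples, and 2.73 and 1.93 in normal fed samples. It rose by 2.24 ± 0.22 with DDC (adjusted p = 0.000486, limma) and by 1.43 ± 0.22 in E18 (adjusted p = 0.000944), both against normal fed.

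Of the TEAD factors, Tead1 had 5.55 and 4.68 TPM in DDC fed samples, 6.90 and 4.57 in E18 samples, and 2.14 and 0.775 in normal fed samples. It was higher with DDC by 1.37 ± 0.31 (adjusted p = 0.0152, limma), a call lost without either DDC fed sample or either E18 sample (adjusted p between 0.0586 and 0.0905). In E18 against normal fed samples it was higher by 1.49 ± 0.31 (adjusted p = 0.0043, limma), which did not pass with median-ratio scaling (0.66) or without E18 sample 0 (1.24). Tead2 was highest in E18, with 1.70 and 0.873 TPM in DDC fed samples, 20.9 and 16.1 in E18 samples, and 0.248 and 0.618 in normal fed samples. It was higher in E18 than in normal fed samples by 3.77 ± 0.25. In DDC fed samples it was lower than in E18 samples, at -3.11 ± 0.25 (adjusted p = 6.43e-05, limma). It met the filter on low values through E18 and 1 DDC fed sample. A difference between E18 and normal fed was thus built into its passing, and no p is given for that difference. Tead3 did not pass in DDC fed (0.15) or E18 samples (-0.65) against normal fed, although it passed as lower in E18 with median-ratio scaling (-1.60). Tead4, Vgll1, Vgll2 and Vgll3 were too low to test. DDC fed over E18, Yap1 (0.99 ± 0.29, adjusted p = 0.0211, limma), Wwtr1 (0.81 ± 0.22, adjusted p = 0.0161) and Tead3 (0.79 ± 0.26, adjusted p = 0.0322) were higher. Without single DDC fed or E18 samples these 3 calls were lost, with adjusted p up to 0.17 for Yap1, 0.126 for Wwtr1 and 0.219 for Tead3. Yap1 kept its call without E18 sample 0.

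Among 12 Hippo kinases and upstream regulators, 5 were higher in DDC fed than in normal fed samples and 0 lower, with a median log2 fold change of 0.60 beside 0.45 for all genes. The 5 were Amot (2.27 ± 0.30), Frmd6 (1.57 ± 0.17), Amotl1 (0.90 ± 0.20), Stk3 (0.72 ± 0.23), which encodes MST2, and Mob1a (0.66 ± 0.20), a cofactor of LATS. This count was lower without any 1 of the DDC fed and E18 samples and higher without normal fed sample 0. Leaving out a sample also leaves fewer residual degrees of freedom. Without either E18 sample, Stk3 and Mob1a kept their fold changes of 0.72 and 0.66. Median-ratio scaling put them at 0.12 and -0.0 in DDC fed against normal fed samples, and neither passed. With that scaling 3 of the 12 were higher and Nf2, at -0.74, was lower. Amot and Frmd6 passed under each alternative in which they were tested. Frmd6 and Amotl1 were under 1 TPM in both normal fed samples and passed the filter only through the other groups. The kinase genes Lats1 (0.32), Lats2 (0.18) and Stk4 (0.74), the adaptors Sav1 (0.54) and Mob1b (0.36), and Nf2 (-0.09) and Wwc1 (0.38), which act upstream, did not pass. In E18 against normal fed samples 11 of the 12 were higher, beside 63.0% of all genes, and 1, Wwc1 (-1.41 ± 0.36), was lower, a call lost without E18 sample 1. With median-ratio scaling 7 were higher, and Lats1, Lats2, Mob1b and Nf2 did not pass. In DDC fed against E18 samples 9 were lower, beside 47.0% of all genes, and Wwc1 (1.79 ± 0.36) was higher, while Amot and Frmd6 did not pass. Without any 1 of the 4 DDC fed and E18 samples, 5 were lower.

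A list of 20 further YAP/TEAD targets was written from general knowledge, with earlier results of these data at hand. With DDC, 11 of the 18 tested were higher than in normal fed samples and 0 lower, with a median of 0.82, beside 34.2% higher and a median of 0.45 for all genes. With median-ratio scaling 9 were higher and Nuak2 was lower, as it was without normal fed sample 1. Birc5 and Ccdc80 were among those with the smallest adjusted p. Birc5, an inhibitor of apoptosis needed in mitosis, had 26.9 and 31.7 TPM in DDC fed samples, 148 and 211 in E18 samples, and 1.06 and 0.901 in normal fed samples. Ccdc80, a matrix protein, had 16.9 and 15.0 TPM in DDC fed samples, 29.6 and 24.3 in E18 samples, and 1.21 and 0.271 in normal fed samples. Both were thus highest in E18. In E18 against normal fed samples 15 of the 18 were higher and 0 lower, with a median of 2.24 beside 1.06 for all genes, of which 63.0% were higher. With median-ratio scaling 12 were higher and 2, F3 and Nuak2, were lower, and without normal fed sample 1 F3 was lower. Thbs1, which encodes the matrix protein thrombospondin-1, was the extreme, with 1.56 and 2.08 TPM in DDC fed samples, 493 and 451 in E18 samples, and 0.0170 and 0.00471 in normal fed samples. The part of other cell types in this level was not tested. DDC fed against E18, 14 of these targets were lower and Sox9 (2.33 ± 0.27, adjusted p = 0.000358, limma) was higher, beside 47.0% and 17.7% of all genes. The lower ones numbered 9 without DDC fed sample 0 or without E18 sample 0.

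**Figure D4:**
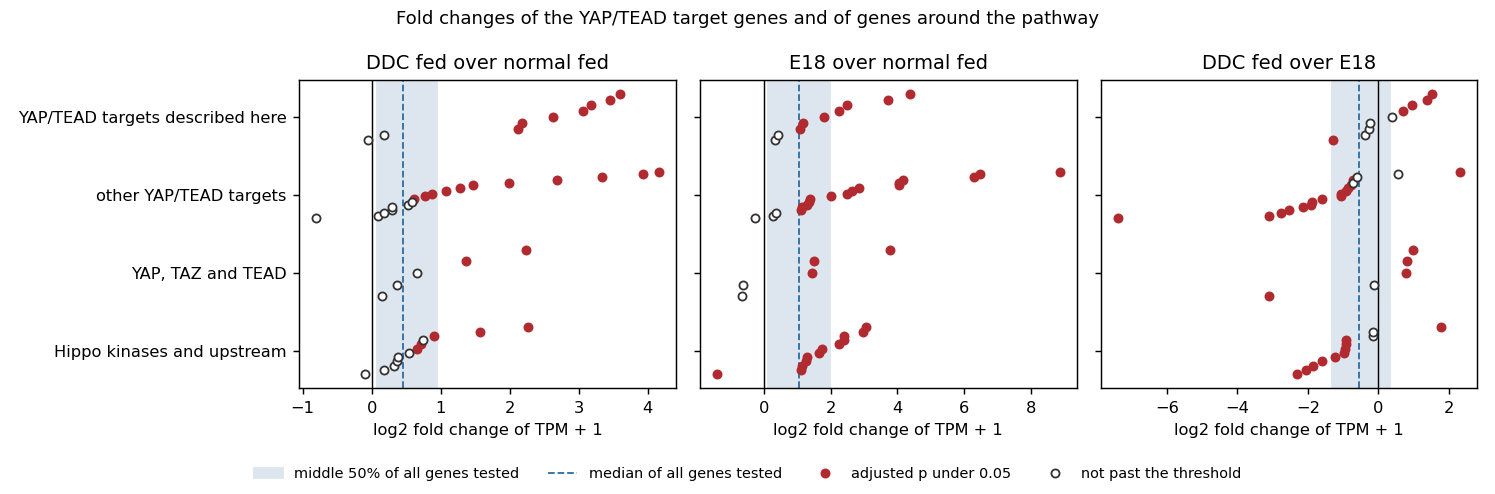
Log2 fold changes on the log2(TPM + 1) scale (limma) of the tested genes among the members, the further YAP/TEAD targets, the genes for YAP, TAZ and TEAD factors and the Hippo kinases and upstream regulators, in the 3 comparisons; each point is 1 gene, filled where it passed, the dashed line is the median of all genes tested and the shading their middle range. In DDC fed over E18, 14 of 18 further YAP/TEAD targets are lower, while 4 members are higher.

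The paralogs of the members show that closely related genes differed. Ccn5, of the same family as Ccn1 and Ccn2 but lacking the carboxy-terminal domain, had 59.2 and 48.7 TPM in DDC fed samples, 0.0826 and 0.0614 in E18 samples, and 0.0435 and 0.0409 in normal fed samples. The log2 difference between DDC fed and normal fed samples was 5.71 ± 0.17. Ccn5 met the filter on low values only through the DDC fed samples, so that this difference was built into its passing and no p is given for it. In E18 against normal fed samples, all under 0.1 TPM, it stood at 0.04. Tgfb1 showed the other order, with 9.65 and 10.7 TPM in DDC fed samples, 133 and 159 in E18 samples, and 1.79 and 0.642 in normal fed samples. Of 10 paralogs tested, 7 were higher with DDC, among them Ccn5, Tgfb1 and Amot, beside 34.2% of all genes, with a median of 1.12. Without DDC fed sample 0 or without sample 1 there were 4, Mertk, Tgfb3 and Amotl1 no longer passing. In E18, 9 were higher than in normal fed samples, beside 63.0% of all genes, with a median of 1.81, and 0 were lower in either comparison. DDC fed against E18, Ccn5 was higher and 6 were lower, beside 17.7% and 47.0% of all genes. As Ccn5 met the filter only through the DDC fed samples, its difference from E18 was built in as well.

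The partners of the members on the cell surface and in the matrix were read from 18 genes. In DDC fed against normal fed samples 11 were higher and 0 lower, with a median of 1.12, beside 34.2% of all genes higher. Without DDC fed sample 0 there were 6, with Pros1, Tgfbr3, Adora2a, Itgav and Itgb3 no longer passing. Gas6, the ligand of Axl, had 74.9 and 66.6 TPM in DDC fed samples, 10.8 and 10.8 in E18 samples, and 6.65 and 5.07 in normal fed samples. The ligand was therefore highest in DDC fed samples, while Axl was highest in E18. Gas6 rose by 3.39 ± 0.21 with DDC (adjusted p = 9.92e-05, limma). Tgfbr2, a receptor of TGF-beta ligands, had 52.0 and 39.0 TPM in DDC fed samples, 24.6 and 23.6 in E18 samples, and 2.34 and 0.788 in normal fed samples. Entpd2, an enzyme that breaks down extracellular ATP upstream of CD73, had 44.4 and 37.1 TPM in DDC fed samples, 10.6 and 7.34 in E18 samples, and 2.51 and 0.877 in normal fed samples. In E18 against normal fed samples 13 of the 18 were higher, beside 63.0% of all genes, and 1, Lrp1, was lower, a call lost without any 1 of the DDC fed and E18 samples. With median-ratio scaling 9 were higher and 2, Bmp4 and Lrp1, lower. In DDC fed against E18 samples 6 were higher and 6 lower, beside 17.7% and 47.0% of all genes. The higher ones numbered 3 without DDC fed sample 0 or without sample 1, and 2 without E18 sample 0 or without sample 1.

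Markers of several other liver cells moved in the same direction as the members, but not those of all. In DDC fed against normal fed samples, 15 of 15 macrophage and 14 of 15 stellate cell and fibroblast markers were higher. So were 13 of 15 endothelial and 7 of 12 tested cholangiocyte and ductular markers, beside 34.2% of all genes. Among others, 2 of 7 mesothelial, 2 of 8 megakaryocyte and platelet, 0 of 5 lymphocyte and 0 of 10 erythroid markers were higher, and 1 erythroid marker was lower. The endothelial count was lower without any 1 of the E18 and DDC fed samples. Leaving out an E18 sample does not change these fold changes and only leaves fewer residual degrees of freedom. The 15 stellate cell and fibroblast markers summed to 412 and 369 TPM in DDC fed samples, 375 and 342 in E18 samples, and 31.6 and 15.5 in normal fed samples. Endothelial markers summed to 228 and 238 TPM in DDC fed samples, 691 and 706 in E18 samples, and 66.7 and 20.8 in normal fed samples. For cholangiocyte and ductular markers the sums were 125 and 137 TPM in DDC fed samples, 312 and 199 in E18 samples, and 14.3 and 12.3 in normal fed samples. The members' own sum was 231 and 396 TPM in DDC fed samples, 216 and 204 in E18 samples, and 78.8 and 36.2 in normal fed samples. Stellate cells, endothelium and ducts are known to express several of the members, among them Ccn1, Ccn2, Axl and Nt5e. Their part in the members' changes was not tested.

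Single defining markers were read beside these sums. Clec4f, of Kupffer cells, had 154 and 176 TPM in DDC fed samples, 146 and 202 in E18 samples, and 38.5 and 35.5 in normal fed samples. Lrat, of quiescent stellate cells, had 6.22 and 4.98 TPM in DDC fed samples, 4.40 and 4.08 in E18 samples, and 0.672 and 0.214 in normal fed samples. Both were thus higher in DDC fed and E18 samples than in normal fed samples. Stab2, of sinusoidal endothelium, had 14.0 and 13.8 TPM in DDC fed samples, 76.4 and 67.3 in E18 samples, and 4.29 and 0.866 in normal fed samples. The ductular keratin gene Krt19 was near 0 in DDC fed samples, at 0.0909 and 0.228 TPM, against 0.0482 and 0 TPM in normal fed samples, and had 10.9 and 5.66 TPM in E18 samples. Epcam, of bile duct and progenitor cells, had 1.22 and 1.39 TPM in DDC fed samples, 21.8 and 7.21 in E18 samples, and 0.0534 and 0.0441 in normal fed samples. Msln, of mesothelium, was under 0.1 TPM in DDC fed samples, at 3.66 and 4.12 TPM in E18 samples and at 0 in normal fed samples. The summed erythroid markers were 9.12 and 8.54 TPM in DDC fed samples, 12620 and 23770 in E18 samples, and 26.4 and 17.0 in normal fed samples. Megakaryocyte and platelet markers summed to 6.47 and 6.08 TPM in DDC fed samples, 2036 and 2290 in E18 samples, and 1.47 and 1.85 in normal fed samples. Of 15 cholangiocyte and ductular markers, 1 was at 0 in both DDC fed samples and 4 in both normal fed samples, while no macrophage or endothelial marker was at 0 in both samples of any group.

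**Figure D5:**
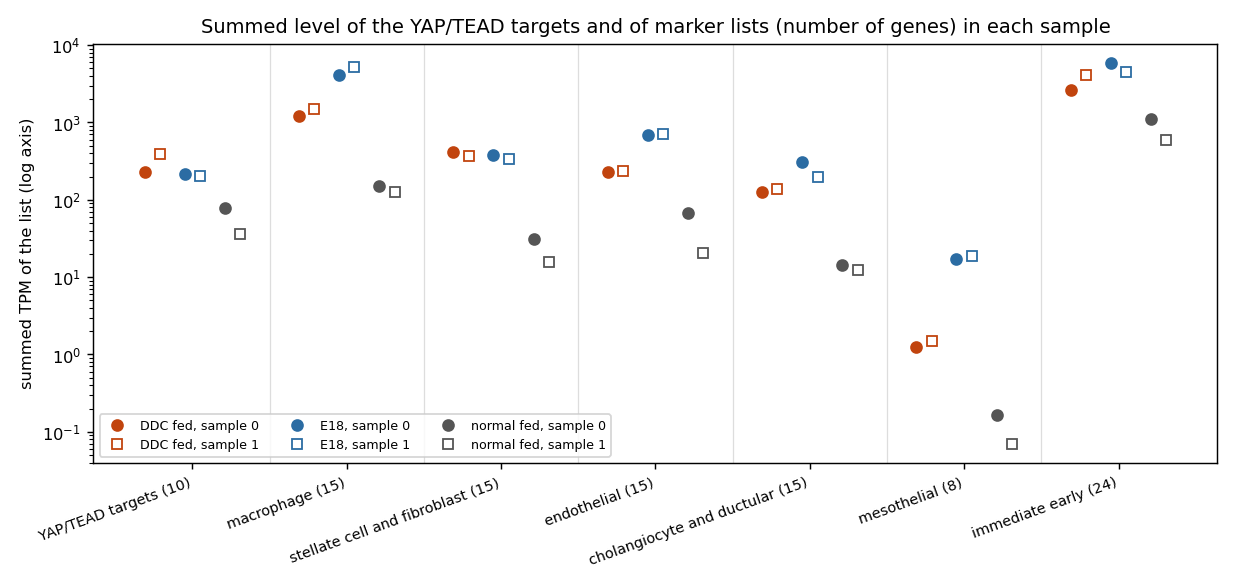
Summed TPM (log axis) of the member genes, of marker lists of other liver cells and of the immediate early genes in each of the 6 samples, with DDC fed, E18 and normal fed from left to right; filled circles are sample 0 and open squares sample 1. The sums for macrophage, stellate cell, endothelial and ductular markers are lower in the normal fed samples than in the other groups, as is the sum of the members.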

How the data were processed

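Polyadenylated RNA of 6 hepatocyte samples was sequenced from stranded libraries, per the labels' protocols. The authors deposited a table of TPM for 48432 genes. Tools named in the submitters' processing notes, with no role given, are STAR 2.4.2a, HTSeq, Cuffdiff 2.2.1, DESeq2, Picard 1.119, Trimmomatic and bcl2fastq 2.17.1.14, and the build is GRCm38 (mm10). Which of them made the TPM values is not given in the sources used here. Since read counts were not used here, the depth of a sample and the counting error of a value are unknown. The table's columns carry the numbers 0 and 1 where the titles carry 1 and 2, and were therefore assigned to groups only.

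Gene symbols came from GENCODE M21, which matched 48053 of the 48432 identifiers. Tests used limma 3.58.1 in R 4.3.3 on log2(TPM + 1), with a mean for each of the 3 groups, all 6 samples in the fit, empirical Bayes variances with a trend and 3 residual degrees of freedom. The filter was 1 TPM or more in 2 or more samples, which 14307 genes met. P-values are two-sided, with Benjamini-Hochberg adjustment over those genes and a threshold of 0.05. DDC fed was compared with normal fed, E18 with normal fed, and DDC fed with E18. The fit was tested on simulated data.

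The members and the gene lists were chosen with earlier results of these data known. Named genes are all members, the YAP/TEAD and Hippo lists, the 3 genes of smallest adjusted p with DDC in each list of targets, paralogs and partners, the defining markers, and the 3 nearest patterns of Ccn1 and Ccn2. Gadd45a, Thbs1, Ttr, Fgb, the genes whose calls changed with a sample or scaling, and the immediate early genes were named after their values were seen. Some genes that the rule names are not reported here. Promoters are those of RefSeq, and the last 40 bases of 6 of the 9 windows lie in a GENCODE transcript of the gene in the same orientation. Those of Axl, Ajuba and Vgll4 do not.

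Other settings tried were pseudocounts of 0.1 and 5, no filter, a filter on a mean of 5 TPM, median-ratio scaling, a correction for exon length, a replicate block, a fit to the compared groups alone, a threshold of 0.01, and leaving out each sample. A sample left alone in its group is taken to vary as the others do.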

Additional observations from a re-analysis of the deposited data

How the results depend on the processing

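Of 402 results of single members under an alternative, 365 kept their direction and their side of the threshold. With the sign kept, 19 no longer passed and 7 came to pass. The other 11 changed sign, and some of these also came to pass, such as Amotl2 and Vgll4 in E18 with median-ratio scaling. The number of members called in DDC fed against normal fed samples was 7 in the main analysis and 7 to 9 with each sample left out. In E18 against normal fed it was 7, and 6 to 9 with each sample left out. In DDC fed against E18 it was 5, and 3 without the filter, 3 with exon-length correction, 3 at an adjusted p of 0.01, and 2 to 6 with each sample left out. The cause was not tested.

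Changes of sign were those of members near 0. With each sample left out, Amotl2 ranged over -0.59 to 0.49 and Vgll4 over -0.33 to 0.70 in DDC fed against normal fed, and over -0.21 to 0.87 and -0.10 to 0.94 in E18 against normal fed. Median-ratio scaling gave Vgll4 -0.47 with DDC, Amotl2 -0.79 and Vgll4 -0.73 in E18, and 0.10, 0.20 and 0.25 for Amotl2, Nt5e and Vgll4 in DDC fed against E18. Over all genes that scaling turned 4896 higher and 439 lower into 2907 and 1700 in DDC fed against normal fed, 9020 and 1815 into 5456 and 4520 in E18 against normal fed, and 2532 and 6723 into 3925 and 4945 in DDC fed against E18.

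All genes called in DDC fed against normal fed numbered 5335, and 3032 at an adjusted p of 0.01, 2815 and 2755 without DDC fed sample 0 and sample 1, and 8949 without normal fed sample 0. In DDC fed against E18, 9255 genes were called, and 6118 without E18 sample 1.

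Sample numbers were not taken to pair samples: deviations of same-numbered samples correlated at 0.061 (DDC fed and E18), 0.233 (DDC fed and normal fed) and 0.139 (E18 and normal fed) over 14307 genes. With the replicate number as a block, 7, 7 and 5 members were called, and no member's call changed. With 2 samples a group and unknown depth, values under 1 TPM, such as those of Ankrd1, cannot be given an error from counting.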
